A study of Mus musculus with 40 samples.

Results

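The comparison set mouse 1-cell embryos cloned by somatic cell nuclear transfer (SCNT) against fertilized 1-cell embryos, both without inhibitor. It rests on 7 of the 39 arrays with values in the series, chosen by their labels: 3 of SCNT embryos (replicates 1, 3 and 4) and 4 of fertilized embryos (replicates 1 to 4). A column for SCNT replicate 2 is empty, so that array gave no value. All embryos were labelled B6D2, and the donor nuclei came from cumulus cells, the follicle cells around the oocyte, of B6D2 females. The labels name MEMa as culture medium for SCNT replicates 3 and 4 and KSOM for fertilized replicate 4, and none for the other arrays of the pair, so medium and origin cannot be told apart. Further 1-cell groups of 4 arrays each were used for comparison: SCNT embryos with amanitin, parthenogenetic embryos, and fertilized embryos with amanitin. The letter A in a title was read as amanitin, which the labels spell out for 3 of the 4 such 1-cell SCNT samples. Neither separate cultures nor the number of embryos pooled is labelled, so p-values measure the spread between samples only, and less RNA per embryo cannot be told apart from fewer embryos holding it.

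A mouse egg is nearly silent in transcription and carries a store of maternal RNA and protein from oocyte growth. After fertilization this store is used and degraded while a minor wave of transcription starts in the late 1-cell embryo, ahead of the major wave at the 2-cell stage. In nuclear transfer the egg's chromosomes are replaced by a differentiated nucleus, activation is artificial, and no sperm enters. Amanitin blocks RNA polymerase II, and so separates levels that need new transcription from levels that do not. Parthenogenetic embryos are activated eggs with neither sperm nor donor nucleus.

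Levels are given in log2 units: log2 of the deposited probe set signal plus a constant of 6.9, quantile normalized over 39 arrays. A difference is SCNT minus fertilized in those units with its standard error (SE). A gene was called at an adjusted p under 0.05 (limma, Benjamini-Hochberg over 14916 genes). The fit took the spread of each gene from all 39 arrays, so SEs and p-values also draw on groups outside this comparison. Differences of dim genes, near or below the overall median of 5.34, depend on the constant.

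Poly(A) control transcripts and the 18S rRNA 3′ probe set separated the arrays by origin. The 18S 3′ signal lay at 13.36 to 13.64 on the SCNT and 12.87 to 13.27 on the fertilized arrays (exact permutation p = 0.0286). Hybridization controls and the 18S 5′ probe set overlapped between the groups (exact permutation p = 0.714 and 0.429). The poly(A) control transcripts averaged 3.62 ± 0.05 log2 units on the SCNT arrays (SD, n = 3), far below the overall median, and 6.19 ± 0.44 on the fertilized arrays (SD, n = 4). An exact permutation test gave p = 0.0286, the smallest that 3 against 4 arrays allow. The poly(A) controls were at 3.75 on SCNT arrays with amanitin, 7.87 on parthenogenetic arrays and 7.29 on fertilized arrays with amanitin. Sample preparation and origin thus cannot be told apart where SCNT embryos are compared with other embryos. Fertilized arrays also differed by treatment, with these controls at 7.22 to 7.42 with amanitin and 5.93 to 6.85 without. Their array medians as deposited averaged 4.96 and 5.27 log2 units. Within fertilized embryos, treatment and preparation therefore cannot be told apart either. Fertilized replicate 1 stood apart from its group: its poly(A) controls reached 6.85 against 5.93 to 6.02 on the other fertilized arrays. Its Actb 3′ minus 5′ difference, a measure of RNA length, was 2.59 against 1.71 to 1.74, with the SCNT arrays at 2.23 to 2.39. Over all genes fertilized replicate 1 correlated with the other fertilized arrays at 0.956 to 0.957, while those correlated at 0.963 to 0.966 among themselves. Its correlations with other groups were higher than with its own: 0.958 to 0.962 with SCNT arrays and 0.961 to 0.965 with fertilized arrays with amanitin. SCNT arrays correlated at 0.970 to 0.972 with each other and at 0.953 to 0.963 with fertilized arrays.

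**Figure D1:**
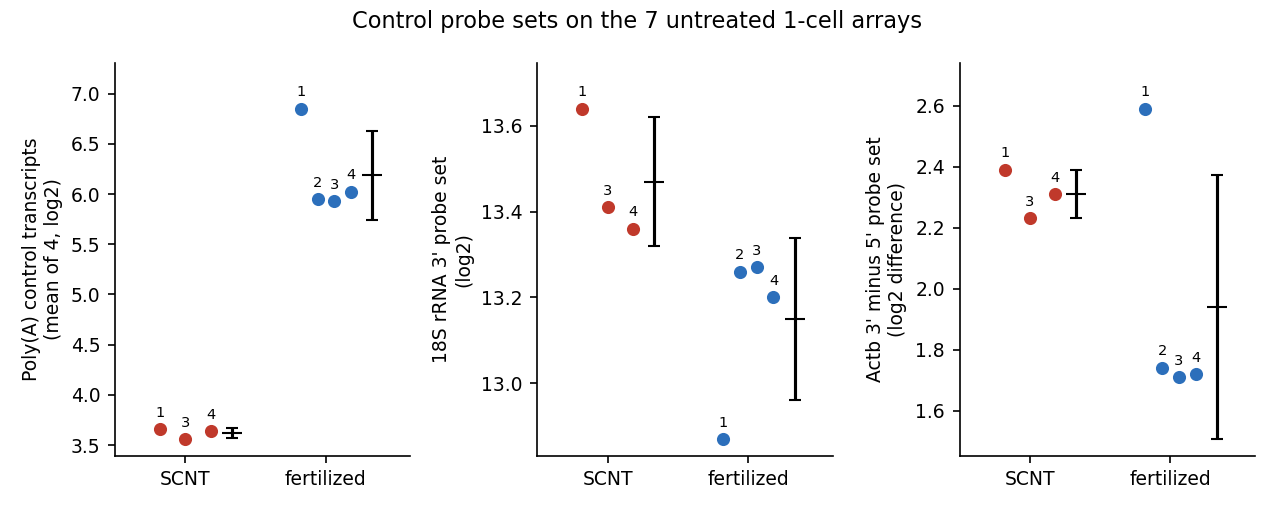
Control probe sets on the 7 untreated 1-cell arrays, in log2 units, with SCNT arrays at the left and fertilized arrays at the right of each panel; digits are replicate numbers, and the bar shows mean and SD. Poly(A) controls lie at 3.56 to 3.66 on the SCNT arrays, and fertilized replicate 1 is the extreme fertilized array in all 3 panels.

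SCNT embryos already differed from fertilized embryos in many transcripts at the 1-cell stage, in both directions and mostly by modest amounts. Of 14916 genes, 829 were called (5.56%): 428 were higher (2.87%) and 401 lower (2.69%). By at least 2-fold, 87 called genes were higher (0.583%) and 73 lower (0.489%). The median size among called genes was 0.65 log2 units, and 319 of them differed by less than 1.5-fold. Arrays of the groups did not overlap for 2487 genes (16.7%), among them 741 called ones (4.97%). Without fertilized replicate 1 the test called 1085 genes, 587 higher and 498 lower, of which 733 were among the 829. The count was 457 without SCNT replicate 1 and 437 without SCNT replicate 4. Calls of any size were most frequent among abundant transcripts: with genes cut into 3 equal classes by level, 12.8% of the highest class were called, 2.49% of the middle and 1.35% of the lowest. The median SE was 0.150 in the highest and 0.388 in the lowest class. Calls of at least 2-fold ran the other way, with 17 higher and 26 lower in the highest class, 36 and 20 in the middle and 34 and 27 in the lowest. Lists of abundant genes are better read beside the highest class, where 322 of 4972 genes were called higher and 316 lower at any size.

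**Figure D2:**
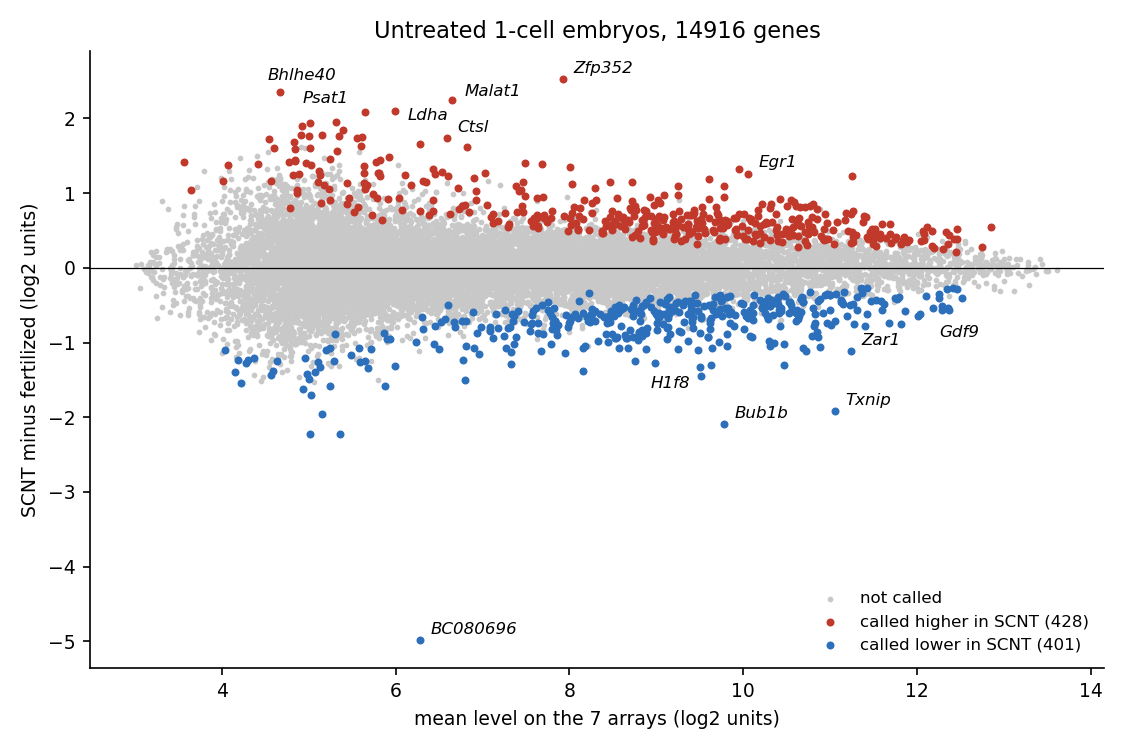
Mean level on the 7 arrays (x, log2 units) against SCNT minus fertilized difference (y, log2 units) for the 14916 genes; red genes were called higher and blue genes lower in SCNT embryos. Zfp352 at 2.53 and BC080696 at -4.98 are the extremes.

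The largest increase was that of Zfp352, a zinc finger gene active in early mouse embryos. It measured 9.40, 9.09 and 9.64 log2 units on the SCNT arrays, against 7.73, 6.23, 7.05 and 6.37 on the fertilized arrays. All SCNT arrays lay above all fertilized arrays, with fertilized replicate 1 the highest of its group. The difference was 2.53 (SE 0.27, limma adjusted p = 6.96e-08), or 5.78-fold, and the gene's other probe set gave 2.58 and was called too. With amanitin Zfp352 averaged 6.27 ± 0.29 in SCNT embryos (SD, n = 4) and 5.61 ± 0.16 in fertilized embryos (SD, n = 4), a difference of 0.65 that was not called (limma adjusted p = 0.0605). In parthenogenetic embryos it averaged 8.74, which is 1.89 above fertilized embryos (limma adjusted p = 4.22e-07). That comparison shares the fertilized arrays.

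The promoter of Zfp352 is shown because much of it is a tandem repeat of a unit of 20 to 21 bases. RefSeq (GRCm38.p6) places the 300 bases from 250 before to 50 after its start at chr4:90218570-90218869, forward strand. GGATTA, the core bound by bicoid-class homeodomain proteins such as OTX2 and CRX, was searched on both strands. It occurs 9 times there, each time on the reverse strand, so that the line below reads TAATCC (capitals), with matches 20 to 21 bases apart.
Zfp352: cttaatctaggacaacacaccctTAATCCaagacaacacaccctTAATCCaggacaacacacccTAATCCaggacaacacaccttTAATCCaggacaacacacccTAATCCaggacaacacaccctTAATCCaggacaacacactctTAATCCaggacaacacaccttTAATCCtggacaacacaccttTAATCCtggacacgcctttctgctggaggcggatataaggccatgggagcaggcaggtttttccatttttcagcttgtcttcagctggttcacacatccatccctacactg
Of 32851 mouse promoter windows of this length, 2320 hold GGATTA at all (7.06%) and 118 hold 2 or more (0.359%), and Zfp352 is the 1 window with as many as 9. The E-box, cAMP response element, TATA box, CCAAT box and GC box searched for have no match in it. The TATA box was searched only as the exact letters TATAAA, and the sequence holds tataag. The lack of a match therefore does not show that a TATA element is absent. All 9 matches belong to 1 tandem repeat, at -227 to -61 from the start, so they are not 9 independent occurrences. A match describes letters, and factor binding was not measured.

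Ldha was among the larger increases. It encodes the lactate dehydrogenase A subunit, which interconverts pyruvate and lactate. It measured 7.07, 7.31 and 7.18 on the SCNT arrays, against 5.66, 4.41, 5.0 and 5.29 on the fertilized arrays. The groups were far apart and the SCNT arrays nearly equal, a difference of 2.10 (SE 0.35, limma adjusted p = 0.000138). With amanitin Ldha was at 6.80 in SCNT and 3.69 in fertilized embryos (3.12, limma adjusted p = 2.18e-09), so its difference was there under the inhibitor as well. Parthenogenetic embryos averaged 6.59 ± 0.29 (SD, n = 4).

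The Ldha promoter is given beside that of Zfp352 for contrast, as the promoter of another strongly increased gene. The first of 2 RefSeq windows lies at chr7:46845554-46845853 (GRCm38.p6, forward strand). Its capitals mark CACGTG, the E-box read by MYC and HIF-family proteins, with 2 matches, and TGACGTCA, the cAMP response element, with 1. Both are palindromes, so each match counts for both strands.
Ldha: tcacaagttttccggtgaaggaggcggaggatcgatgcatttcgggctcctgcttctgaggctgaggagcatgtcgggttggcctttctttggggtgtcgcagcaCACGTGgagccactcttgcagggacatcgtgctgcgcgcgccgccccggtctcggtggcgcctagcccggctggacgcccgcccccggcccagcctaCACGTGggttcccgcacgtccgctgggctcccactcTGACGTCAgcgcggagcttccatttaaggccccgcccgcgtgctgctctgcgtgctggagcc
E-boxes are held by 7.15% of all windows (0.594% hold 2 or more) and the cAMP response element by 1.79%. This window also has 3 GGGCGG matches, all on the reverse strand, a motif in 35.7% of windows, and no GGATTA. The TATA box was searched as TATAAA, which 13.6% of windows hold, and has no match here. The same is true of CCAAT, held by 37.4%.

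Psat1, phosphoserine aminotransferase of serine synthesis, measured 6.76, 6.75 and 7.02 on the SCNT arrays, against 5.42, 5.59, 4.88 and 3.13 on the fertilized arrays. The SCNT arrays were tight and all higher, while fertilized replicate 4 was far below its group. The difference was 2.09 (SE 0.41, limma adjusted p = 0.000878) and the second probe set was called as well at 2.75. Under amanitin Psat1 was at 4.94 in SCNT and 4.16 in fertilized embryos, which was not called (0.78, limma adjusted p = 0.144). Scd1, the stearoyl-CoA desaturase that makes monounsaturated fatty acids, rose by 1.44 (SE 0.24, limma adjusted p = 0.000103), and Tkt, transketolase of the pentose phosphate pathway, by 0.77 (SE 0.16, limma adjusted p = 0.00151). Tkt's other 2 probe sets gave 0.21 and 0.54 and were not called. Of 32 measured genes of glucose transport and glycolysis, Ldha and Tkt were called higher and none lower, beside 2.87% and 2.69% of all genes. The list's median was 0.05, against 0.00 over all genes. The glucose transporter Slc2a1 was not called (-0.34, limma adjusted p = 0.397, although 1 of its other probe sets was called lower), nor was the insulin-responsive Slc2a4 (-0.73, limma adjusted p = 0.616), which lay below the overall median on 4 of the 7 arrays.

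Malat1, a long noncoding RNA retained in nuclear speckles, measured 8.21, 7.81 and 7.77 in SCNT embryos, against 4.80, 6.03, 5.68 and 6.24 in fertilized embryos. All SCNT arrays were higher, and fertilized replicate 1 was the lowest array. The difference was 2.24 (SE 0.38, limma adjusted p = 0.000132), or 1.47 with the higher constant, where another probe set stood for the gene. Of 5 other Malat1 probe sets, 3 were called higher (1.81, 1.85 and 0.80), while the remaining 2 were not (0.67 and -0.39). With amanitin the values were 7.70 in SCNT and 5.31 in fertilized embryos (2.39, limma adjusted p = 1.42e-06). Parthenogenetic embryos, at 6.87, were between SCNT and fertilized embryos.

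Several signal-induced genes rose. The early growth response factor Egr1 measured 11, 10.53 and 10.80 on the SCNT arrays, against 9.85, 9.74, 9.12 and 9.36 on the fertilized arrays, without overlap (1.26, SE 0.19, limma adjusted p = 3.73e-05). Sgk1, a kinase downstream of PI3-kinase and glucocorticoids, measured 7.99, 7.40 and 7.87 in SCNT, against 6.35, 6.05, 5.50 and 6.64 in fertilized embryos (1.62, SE 0.35, limma adjusted p = 0.00263). Both groups of arrays were again separate. Srf, the serum response factor, rose by 0.77 (SE 0.11, limma adjusted p = 2.37e-05). Its second probe set gave -0.28 and was not called, and the mean of both lost the call. Fos, a subunit of AP-1, rose by 1.07 (SE 0.30, limma adjusted p = 0.0229). Its call was lost without SCNT replicate 1 or 4 or fertilized replicate 2 or 3 (adjusted p up to 0.152). These were 4 of 29 measured immediate early and signal-induced genes, none was called lower, and the list's median was 0.19. Over all genes 2.87% were called higher and 2.69% lower. Bhlhe40, a basic helix-loop-helix repressor tied to the circadian clock and hypoxia, measured 5.99, 5.35 and 6.71 in SCNT, against 3.73, 3.26, 3.81 and 3.86 in fertilized embryos. It was near background in the fertilized group, and its difference of 2.35 (SE 0.44, limma adjusted p = 0.000498) became 3.0 with the lower and 1.53 with the higher constant.

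The lysosomal proteases Ctsl and Ctsc rose. Ctsl, cathepsin L, measured 7.48, 7.54 and 7.73 on the SCNT arrays, against 5.86, 5.41, 6.11 and 6.04 on the fertilized arrays. The groups were clearly apart, by 1.73 (SE 0.18, limma adjusted p = 6.87e-08), and by 2.27 with amanitin (limma adjusted p = 8.66e-13). In parthenogenetic embryos Ctsl was at 7.74, close to SCNT embryos. Ctsc, cathepsin C, measured 6.62, 6.27 and 6.42 in SCNT, against 5.45, 3.4, 5.48 and 3.62 in fertilized embryos (1.95, SE 0.40, limma adjusted p = 0.00167). Its fertilized arrays split into a higher and a lower pair, and with another added constant the difference was 2.39 or 1.36. A fit of the 7 compared arrays alone did not call Ctsc (adjusted p = 0.057). Npc1, which moves cholesterol out of lysosomes, fell by 1.24 (SE 0.29, limma adjusted p = 0.00603). Without SCNT replicate 1 its adjusted p was 0.0526. Of 51 measured autophagy and lysosome genes 3 were called higher and 4 lower, with a median of -0.17, beside 2.87% and 2.69% of all genes.

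The p53 and DNA damage response list had a mean level of 8.06 in SCNT embryos. In the highest class by level, 322 of 4972 genes were called higher and 316 lower. Of 39 measured p53 and DNA damage response genes 3 were called higher and none lower (median 0.12), beside 2.87% and 2.69% of all genes. Among them were Plk2, a polo-like kinase induced by p53 (1.75, SE 0.40, limma adjusted p = 0.00443), and Sesn1, a sestrin (1.22, SE 0.27, limma adjusted p = 0.00372). Plk2 measured 6.27, 6.82 and 6.75 on the SCNT arrays, against 3.27, 6.07, 5.54 and 4.57 on the fertilized arrays, where replicate 1 was far below the rest. Without that array its difference was 1.22 (adjusted p = 0.0264). A fit of the 7 compared arrays alone did not call Plk2 (adjusted p = 0.0894). Arrdc3, an arrestin-domain adaptor (1.84, SE 0.31, limma adjusted p = 0.000138), and Bambi, a pseudoreceptor that dampens TGF-beta signalling (1.78, SE 0.39, limma adjusted p = 0.00351), rose too. So did the X-linked genes Bex3 (1.78, SE 0.32, limma adjusted p = 0.000396) and Tceal9 (1.94, SE 0.45, limma adjusted p = 0.00541). Tceal9 missed the threshold without SCNT replicate 1 (adjusted p = 0.0562), and its difference was 2.4 or 1.32 with another constant. Bambi missed the threshold in a fit of the 7 compared arrays alone (adjusted p = 0.0524). Tuba1a, an alpha-tubulin, rose by 1.27 (SE 0.29, limma adjusted p = 0.00429), with adjusted p = 0.0612 without SCNT replicate 1. Xist, the RNA that silences an X chromosome, was not called (0.52, limma adjusted p = 0.128). It was called under 2 of 20 alternatives, and its difference ranged from 0.44 to 0.67 over them all.

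Several regulators of transcription and translation were higher by lesser amounts. Yy1, a zinc finger regulator needed in oocytes and embryos, measured 8.31, 7.85 and 7.95 on the SCNT arrays, against 6.90, 7.07, 6.94 and 7.07 on the fertilized arrays. The fertilized arrays were almost equal, and the difference was 1.04 (SE 0.17, limma adjusted p = 0.000108). Of its 3 other probe sets 1 was called (1.17) and the others were not (0.09 and 0.41). Fits of the 1-cell arrays alone, and of the 7 compared arrays, read another of its probe sets and did not call Yy1. The chromatin remodeler Smarca4 rose by 0.55 (SE 0.11, limma adjusted p = 0.00134) on its main probe set and was at -0.39, not called, on the other. Ncoa3, a nuclear receptor coactivator with acetyltransferase activity, rose by 0.83 (SE 0.10, limma adjusted p = 8.21e-07), and Nsd1, a histone H3 lysine 36 methyltransferase, by 0.69 (SE 0.14, limma adjusted p = 0.00101). Histone acetyltransferases and deacetylases had 3 of 34 members called higher and none lower (median 0.02), and methyltransferases and demethylases 3 of 53 and none (median 0.04), beside 2.87% of all genes called higher. The mean levels of these lists in SCNT embryos were 7.82 and 8.49. In the highest class by level, 322 of 4972 genes were called higher.

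Translation factors had 6 of 46 measured members called higher and 2 lower (median 0.05). This and the counts that follow stand beside 2.87% of all genes called higher and 2.69% lower. In the highest class by level, 322 of 4972 genes were called higher and 316 lower. The increases included Paip2, an inhibitor of poly(A) binding protein (0.70, SE 0.10, limma adjusted p = 2.32e-05), Eif4a2, an RNA helicase of initiation (0.73, SE 0.12, limma adjusted p = 5.29e-05), and Etf1, the release factor that ends translation (0.67, SE 0.12, limma adjusted p = 0.000182). Tsr1, needed for small ribosomal subunit maturation, measured 9.17, 9.03 and 9.19 on the SCNT arrays, against 7.83, 7.85, 8.06 and 8.14 on the fertilized arrays. It did not overlap between the groups (1.16, SE 0.15, limma adjusted p = 2.85e-06), while its other probe set gave 0.47 and was not called. Ribosome biogenesis factors were called higher in 5 and lower in 1 of 70 cases (median 0.02), and cytosolic ribosomal proteins in 4 and 1 of 46 (median 0.16), with Rps28 at 0.88 (SE 0.16, limma adjusted p = 0.000288). Among 59 genes of mRNA decay, 5 were higher and 3 lower (median 0.04). Tob1, which recruits the CCR4-NOT deadenylase, measured 7.41, 7.14 and 7.27 in SCNT, against 6.28, 6.26, 5.69 and 5.72 in fertilized embryos (1.29, SE 0.19, limma adjusted p = 2.31e-05). Cnot4, a ubiquitin ligase of that complex, rose by 0.86 (SE 0.15, limma adjusted p = 0.000293). Another Cnot4 probe set was called higher too (1.07), and the rest were not called (0.40, 0.10 and 0.39). The microRNA nuclease Dicer1 rose by 0.48 (SE 0.12, limma adjusted p = 0.00851), a call lost without SCNT replicate 4 (adjusted p = 0.0734). With the mean of probe sets Dicer1 was at 0.03 and not called (limma adjusted p = 0.949).

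BC080696 fell most. RefSeq annotates it on chromosome 5 as an RNA of miscellaneous type, and its function is not stated in the sources used here. It was singled out after its values were seen. It measured 3.70, 3.29 and 3.31 on the SCNT arrays, against 9.11, 8.03, 8.14 and 8.37 on the fertilized arrays. The SCNT arrays were at background while the fertilized arrays were far above it. The difference was -4.98 (SE 0.34, limma adjusted p = 5.97e-13), or -5.90 and -3.77 with the lower and higher constant, since the SCNT level is near the floor. Parthenogenetic embryos averaged 9.41, above the 8.41 of fertilized embryos. With amanitin it was at 3.77 in SCNT embryos and 5.06 in fertilized embryos (-1.29, limma adjusted p = 0.00229). In fertilized embryos its level was 3.35 log2 units lower with amanitin than without (limma adjusted p = 1.04e-08, with 6.03% of genes called). This comparison shares the untreated fertilized arrays, and treatment and preparation cannot be told apart in it.

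Among abundant transcripts the largest decreases were those of Bub1b and Txnip. Bub1b encodes BubR1, a kinase-like protein of the spindle assembly checkpoint. It measured 8.59, 8.70 and 8.46 on the SCNT arrays, against 10.15, 10.79, 10.92 and 10.84 on the fertilized arrays. The lowest fertilized array, replicate 1, was still 1 unit or more above every SCNT array. The difference was -2.09 (SE 0.18, limma adjusted p = 3.29e-10), and -2.68 with amanitin (limma adjusted p = 1.95e-14). Of the 2 other probe sets 1 was called lower (-1.98) and 1 was not (-0.19). Parthenogenetic embryos resembled SCNT embryos with 8.36.

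Txnip, the thioredoxin-interacting protein that restrains glucose uptake and thioredoxin, measured 10.11, 9.93 and 9.83 on the SCNT arrays, against 11.09, 12.15, 12 and 12.27 on the fertilized arrays. Groups were separate, with fertilized replicate 1 the lowest of its group (-1.92, SE 0.24, limma adjusted p = 1.17e-06). A second probe set gave -0.58 and was not called. Under amanitin the levels were 9.82 in SCNT and 12.07 in fertilized embryos (-2.25, limma adjusted p = 5.92e-10), and parthenogenetic embryos had only 8.49. Gclm, the modifier subunit of glutathione synthesis, fell by 0.99 (SE 0.26, limma adjusted p = 0.0139), a call lost without SCNT replicate 3 (adjusted p = 0.127). Antioxidant genes had 1 member called higher and 3 lower of 32 (median 0.16), beside 2.87% and 2.69% of all genes. Without fertilized replicate 1, none of them was called higher and 2 lower. Their mean level was 7.92 in SCNT embryos, and in the highest class by level 322 of 4972 genes were called higher and 316 lower. Txndc11, a thioredoxin-domain protein of the endoplasmic reticulum, fell by 1.5 (SE 0.22, limma adjusted p = 1.99e-05), while its other probe set gave -0.60 and was not called. Ndfip1, an adaptor of Nedd4 ubiquitin ligases, fell by 1.45 (SE 0.22, limma adjusted p = 4.59e-05). Of its other probe sets, that at -0.92 was called lower and that at -0.37 was not called. Slc3a2, the heavy chain of amino acid exchangers, measured 8.90, 9.24 and 9.31 in SCNT, against 10.01, 10.21, 10.35 and 10.01 in fertilized embryos (-1.0, SE 0.13, limma adjusted p = 2.85e-06). Ifnz, an interferon-zeta gene, was dim and fell by 2.22 (SE 0.50, limma adjusted p = 0.00363), with adjusted p = 0.0519 without SCNT replicate 4 and a difference of -2.72 or -1.53 with another constant.

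Oocyte transcripts were the list with the largest share of lower calls. Of 40 measured oocyte and maternal-effect genes 9 were called lower and none higher, a share of members to be read beside 2.69% of all genes called lower. The members are abundant, with a mean level of 10.63 in SCNT and 10.75 in fertilized embryos. In the highest class by level, 316 of 4972 genes were called lower. The list's median was -0.06. Of its members 16 did not overlap between the groups, beside 16.7% of all genes, and at an unadjusted p under 0.05 there were 4 higher and 11 lower. H1f8, the oocyte linker histone that is exchanged for somatic H1 after fertilization, measured 8.84, 8.88 and 8.53 on the SCNT arrays, against 9.86, 9.98, 10.08 and 10.38 on the fertilized arrays. The groups were about 1 unit apart (-1.33, SE 0.18, limma adjusted p = 4.7e-06). Zar1, a regulator of maternal mRNA translation, measured 10.63, 10.80 and 10.40 in SCNT, against 11.42, 11.88, 11.87 and 11.70 in fertilized embryos (-1.11, SE 0.15, limma adjusted p = 2.85e-06). Astl, the ovastacin protease that hardens the zona, fell by 0.87 (SE 0.15, limma adjusted p = 0.000134). The zona proteins Zp3 and Zp1 fell by 0.61 (SE 0.12, limma adjusted p = 0.00152) and 0.56 (SE 0.14, limma adjusted p = 0.0101), the growth factor Gdf9 by 0.53 (SE 0.09, limma adjusted p = 0.000131). Tle6, of the subcortical maternal complex, and the oocyte gene Nlrp14 fell by 0.57 (limma adjusted p = 0.00248) and 0.54 (limma adjusted p = 0.0148). Mos, the kinase of meiotic arrest, fell by 0.87 (SE 0.26, limma adjusted p = 0.0383). The calls of Mos, Nlrp14 and Zp1 were lost on leaving out single arrays (adjusted p up to 0.183, 0.142 and 0.0733). For Zp1 this was SCNT replicate 3, for Nlrp14 SCNT replicate 1 or 4 or fertilized replicate 2, and for Mos any array except fertilized replicate 1. Nlrp5, a core member of the subcortical complex, was at 12.34, 12.45 and 12.27 in SCNT, against 12.31, 12.39, 12.33 and 12.32 in fertilized embryos, a difference of 0.02 (limma adjusted p = 0.973). Summed signal of the oocyte list was 142507 to 146558 on the SCNT arrays and 148948 to 158396 on the fertilized arrays. Without fertilized replicate 1 9 members were again called lower, and Kit, Dppa3 and Ybx2 were called higher.

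Several of these oocyte genes were low in parthenogenetic embryos too. Parthenogenetic minus fertilized differences were -1.37 for Zar1, -1.46 for Astl, -1.15 for Zp3, -0.56 for Gdf9 and -1.09 for Mos (limma adjusted p at most 0.000825), all called lower, where 20.4% of all genes were called and 9.52% called lower. H1f8 was at -0.36 there, which was not called (limma adjusted p = 0.13). These comparisons share the fertilized arrays with the SCNT comparison and are given side by side only.

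**Figure D3:**
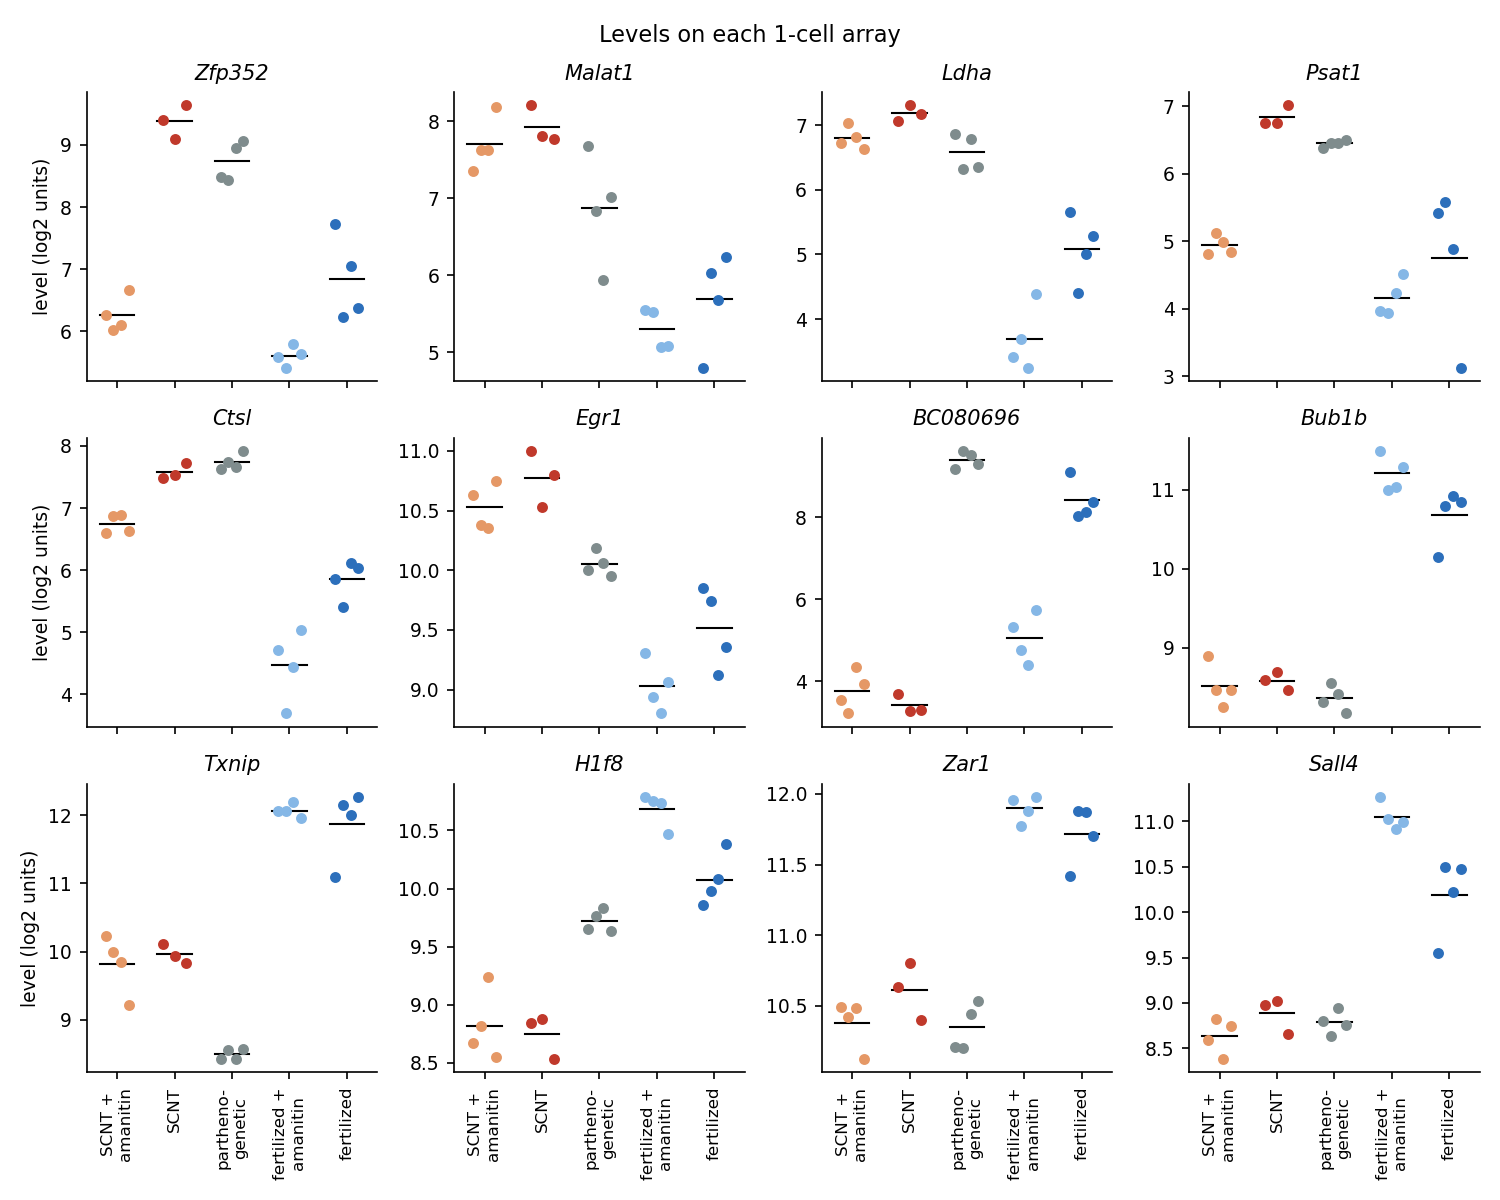
Levels (log2 units) of 12 genes on every 1-cell array; points are arrays, lines are group means, and groups run from SCNT with amanitin, SCNT, parthenogenetic and fertilized with amanitin to fertilized. The SCNT and fertilized points do not overlap in any of the 12 panels.

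Cell-cycle genes moved both ways. Over all genes 2.87% were called higher and 2.69% lower, and in the highest class by level 322 and 316 of 4972. Of 56 measured genes of the cell cycle and spindle checkpoint 4 were called higher and 7 lower (median -0.08). The higher ones were E2f1, a transcription factor of S-phase entry (0.97, SE 0.13, limma adjusted p = 2.85e-06), the phosphatase Cdc25b (0.70, SE 0.13, limma adjusted p = 0.000325), Ccne1, cyclin E1 (0.67, SE 0.14, limma adjusted p = 0.00274), and Cdc25c (0.99, SE 0.22, limma adjusted p = 0.00395). Cdc25c rests on 1 of 2 probe sets, as the other was not called (-0.18), and with the higher constant it was at -0.13. Ccne1 was at 0.23 and not called when probe sets named _s_at or _x_at were left out (limma adjusted p = 0.571). E2f1 was at 9.66, 9.94 and 9.80 in SCNT, against 8.79, 8.56, 9.03 and 8.94 in fertilized embryos, with no overlap, while its 2 other probe sets gave 0.06 and 0.67, not called. The lower ones were Bub1b and Mos, described above, Cdkn2c, an inhibitor of cyclin D kinases (-0.80), the mitotic kinases Cdk1 (-0.53), Plk1 (-0.45) and Aurka (-0.45), and the phosphatase Cdc25a (-0.48), with limma adjusted p of 0.0126 to 0.0269 for the last 5. Each of those 5 calls was lost without some single array: without SCNT replicate 3 for Cdk1, Plk1, Aurka and Cdkn2c, without SCNT replicate 1 also for Cdk1, Plk1 and Aurka, without SCNT replicate 4 for Aurka, Cdc25a and Cdkn2c. Leaving out fertilized replicates ended them too, replicate 1 for Cdk1, replicate 2 for Plk1, Aurka and Cdkn2c, replicate 3 for those and Cdc25a, and replicate 4 for Plk1 and Cdkn2c. On leaving out 1 array the highest adjusted p was 0.135 for Cdk1, 0.309 for Plk1, 0.143 for Aurka, 0.093 for Cdc25a and 0.134 for Cdkn2c. The Cdc25a call was also lost with the mean of probe sets and with median centring. Over all alternatives its difference came as near to none as -0.09, and its adjusted p reached 0.802. The spindle proteins Numa1 (0.12, limma adjusted p = 0.824) and Kifc1 (-0.23, limma adjusted p = 0.787) were not called. Camk2g, the calcium-dependent kinase that starts egg activation, was at 0.73 (SE 0.12, limma adjusted p = 6.97e-05) on one probe set and at -0.70, called lower, on the other, so its direction is unsettled.

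Lineage and 2-cell genes showed no common direction. Sall4, a zinc finger factor of pluripotent cells with a maternal store, measured 8.98, 9.02 and 8.66 on the SCNT arrays, against 9.55, 10.50, 10.22 and 10.47 on the fertilized arrays. It was lower on every SCNT array, by 1.30 log2 units in the mean (-1.30, SE 0.19, limma adjusted p = 2.01e-05), while a second probe set gave 0.18 and was not called. Dppa2, an activator of early embryonic genes, rose by 0.58 (SE 0.14, limma adjusted p = 0.00721), with adjusted p = 0.0541 without SCNT replicate 3. Duxf3, a Dux-family homeobox gene, was dim and fell by 1.17 (SE 0.29, limma adjusted p = 0.00971), with adjusted p = 0.102 without SCNT replicate 1. Of 29 measured genes activated at the 2-cell stage 2 were called higher and 2 lower (median -0.04), and of 43 pluripotency and early lineage factors 3 and 3 (median 0.11), beside 2.87% and 2.69% of all genes. Pou5f1 was at 10.15, 10.39 and 10.15 in SCNT, against 10.27, 9.77, 10.30 and 10.15 in fertilized embryos, overlapping fully (0.11, limma adjusted p = 0.731). Dnmt1, the maintenance DNA methyltransferase (-0.15, limma adjusted p = 0.833), its recruiter Uhrf1 (-0.06, limma adjusted p = 0.935) and the oxidase Tet3 (-0.02, limma adjusted p = 0.993) were not called, nor was the heat-shock gene Hspa1a (-0.05, limma adjusted p = 0.972).

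**Figure D4:**
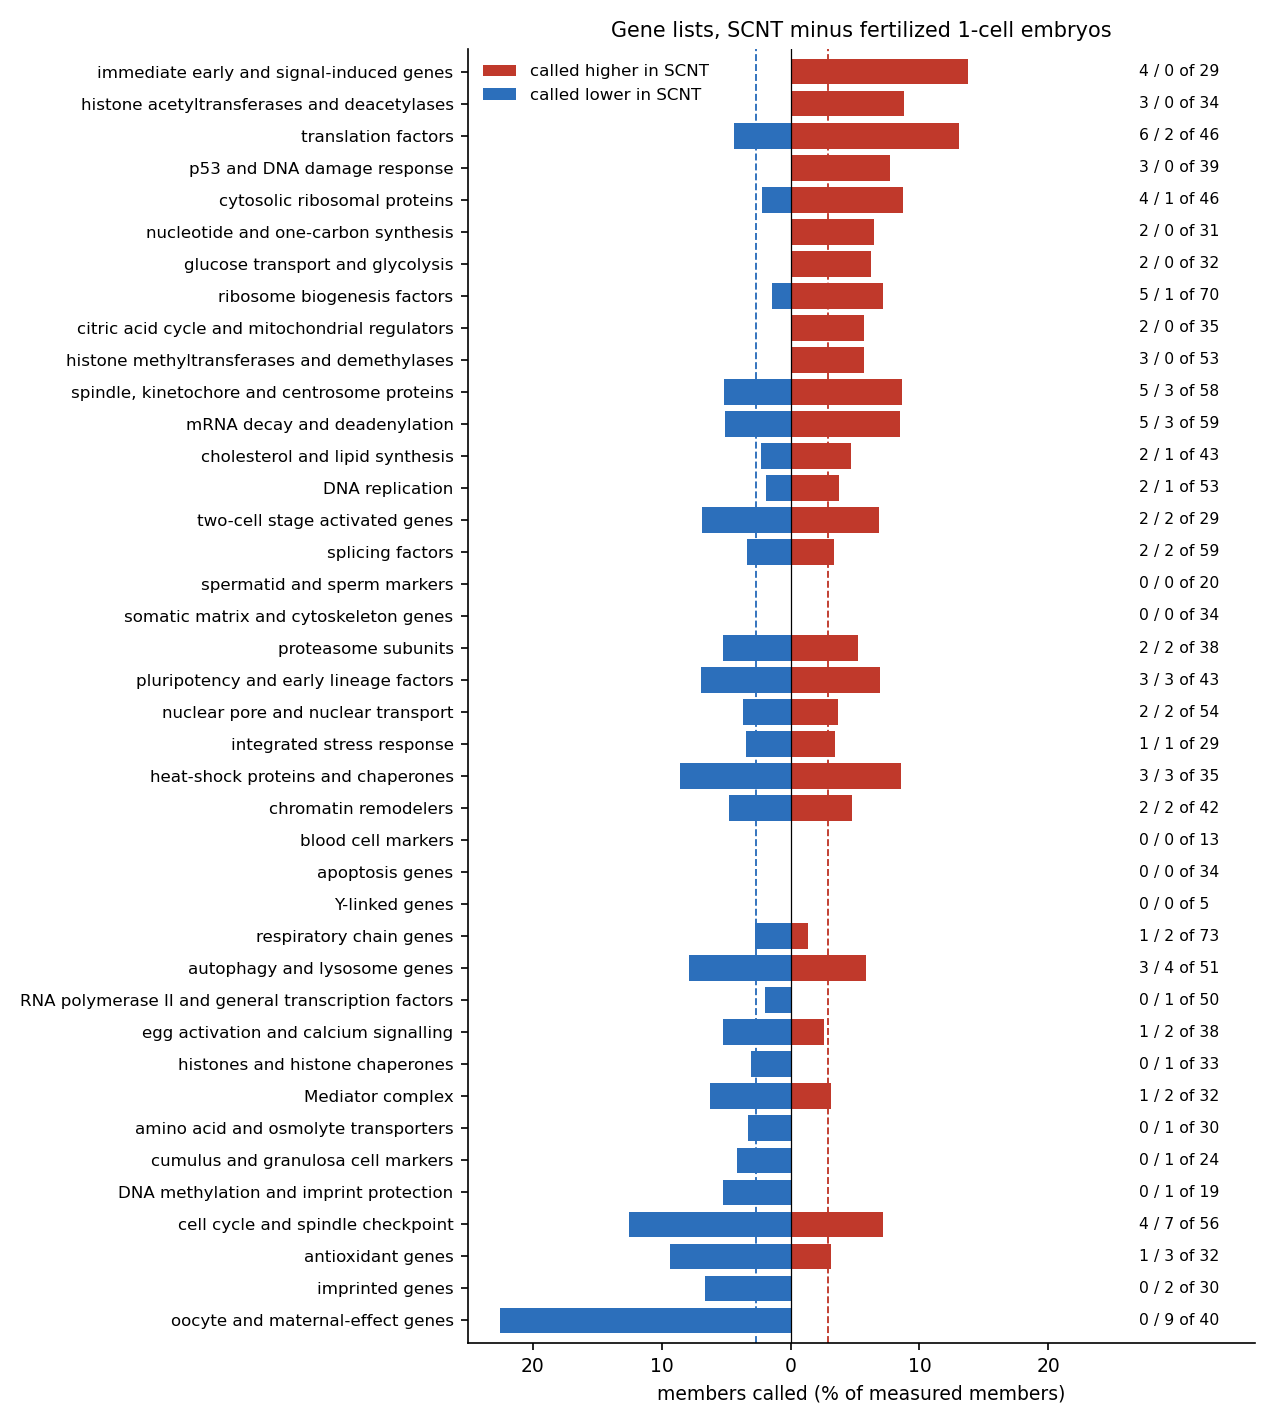
Share of measured members called higher (red, right) or lower (blue, left) in SCNT embryos for 40 gene lists, with the counts at the right as higher / lower of measured. Dashed lines mark the shares over all genes, 2.87% and 2.69%; oocyte genes have the longest bar to the left with 9 of 40, immediate early genes the longest to the right with 4 of 29.

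Without amanitin no marker of the other cell types listed was called higher in SCNT embryos, whereas with amanitin some were. Of 24 measured markers of cumulus and granulosa cells, the donor type, none was called higher and 1 lower. That one was Bmpr1b, a BMP receptor also present in oocytes (-0.86, SE 0.16, limma adjusted p = 0.00049), whose other 2 probe sets were not called (0.25 and 0.41). At an unadjusted p under 0.05, which 16.8% of all genes reached, 2 cumulus markers were higher and 1 was lower. The mean level of the cumulus list was 6.1 ± 0.05 in SCNT embryos (SD, n = 3) and 5.97 ± 0.10 in fertilized embryos (SD, n = 4). Its summed linear signal, which bright members such as Bmpr1b dominate, was 2129 to 2357 on the SCNT arrays and 2365 to 2646 on the fertilized arrays. Of 32 cumulus markers on the array, 10 were above the overall median on all 7 arrays and 6 below it on all 7 (Amh, Cd44, Ereg, Gja1, Hsd17b1 and Wt1). Single markers went either way: Npr2, a natriuretic peptide receptor, lay at 5.36 to 5.53 in SCNT and 3.80 to 3.99 in fertilized embryos, and the protease gene Adamts1 at 4.43 to 5.0 in SCNT and 5.06 to 5.48 in fertilized embryos. With amanitin 5 of the 24 measured cumulus markers were called higher and 2 lower (median 0.23), beside 10.1% and 11.4% of all genes. Matrix genes with amanitin had 4 of 34 called higher and 2 lower (median 0.26), and sperm markers 2 of 20 higher and none lower (median 0.11). The part of donor cell RNA in the differences was not tested. Without amanitin, none of 34 somatic matrix genes, 20 spermatid and sperm markers, 13 blood markers or 5 Y-linked genes was called in either direction in limma. At an unadjusted p under 0.05 there were 2 higher matrix genes, 1 lower sperm marker, no blood marker and no Y-linked gene. Sperm marker sums were 1739 to 2057 in SCNT and 1751 to 2280 in fertilized embryos. The protamine transcripts Prm1 (-0.22, limma adjusted p = 0.887) and Prm2 (0.36, limma adjusted p = 0.676), which sperm can carry, were not called. Y-linked sums were 122 to 179 in SCNT and 174 to 214 in fertilized embryos, low in both groups.

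Under amanitin the same difference of origin was measured on 8 arrays that share none with the untreated ones. Both differences were tested in the same fit, with a shared estimate of the spread of each gene. Their calls are therefore not independent. SCNT and fertilized embryos with amanitin differed in 3214 genes (21.5%), 1513 higher (10.1%) and 1701 lower (11.4%). Of the 829 untreated calls, 591 were called in the same direction with amanitin, which is 71.3% of the untreated and 18.4% of the amanitin calls, and 9 in the opposite direction. The share was 62.4% of the 428 higher calls (267 genes) and 80.8% of the 401 lower calls (324 genes). Bub1b, Txnip, H1f8, Zar1, Slc3a2, Malat1, Ldha, Ctsl, Egr1 and E2f1 were among the genes called alike in both. SCNT arrays lacked the poly(A) controls with amanitin as well, so the same limit on sample preparation applies to both comparisons. The split of amanitin calls moved with scaling: it was 2508 higher and 1696 lower on values as deposited, and 772 and 3049 after median centring, where the median of all genes stood at 0.161 and -0.125.

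**Figure D5:**
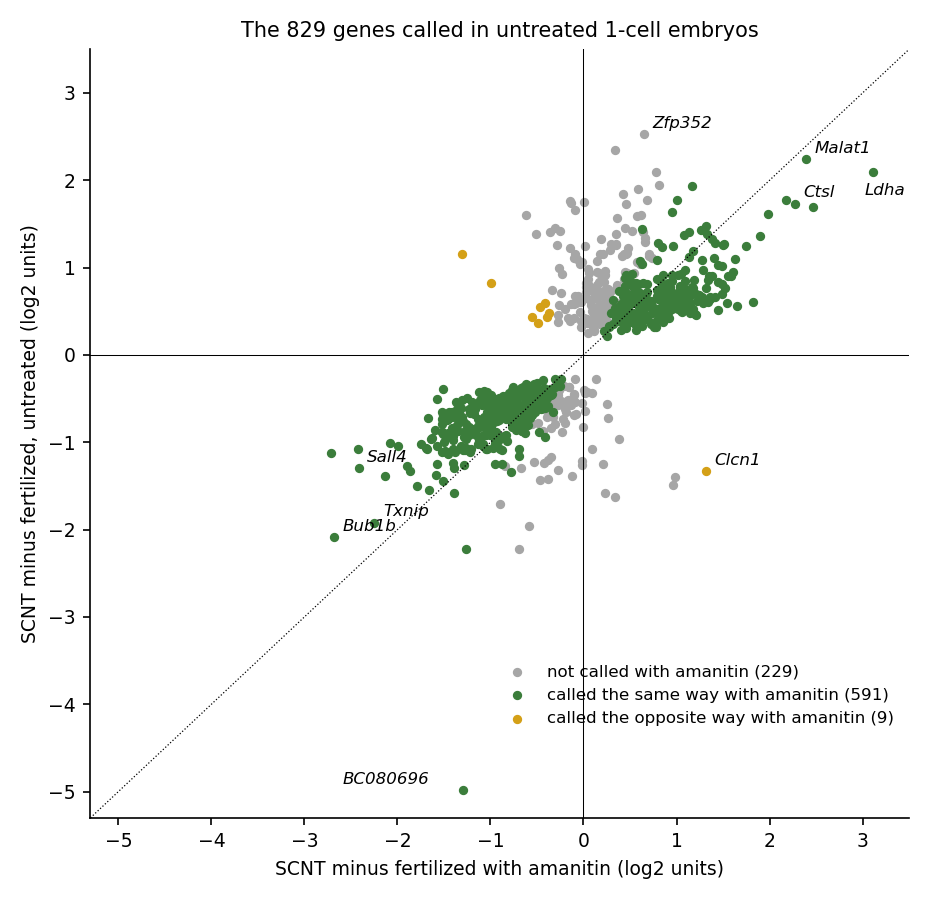
SCNT minus fertilized difference with amanitin (x) against that without (y), in log2 units, for the 829 genes called without amanitin; green genes were called the same way in both (591), yellow ones oppositely (9) and grey ones only without amanitin (229). The dotted line marks equal differences, from which Zfp352 and BC080696 lie far off.

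For some genes the difference of origin was not the same with and without amanitin. Fertilized arrays with and without amanitin also differed in their controls, so treatment and preparation cannot be told apart here. The interaction, the untreated minus the amanitin difference, was called for 359 genes (2.41%), 249 positive (1.67%) and 110 negative (0.737%). On values as deposited the split was 344 and 346, and after median centring 1222 and 58, with the median of all genes at -0.118 and 0.192, so the direction of the interaction as a whole depends on the scaling. Zfp352 had an interaction of 1.88 (limma adjusted p = 0.00361), which was called in 20 of 20 alternative fits. None of those fits left out an array with amanitin. For BC080696 SCNT embryos were near the floor with and without amanitin, so its interaction of -3.69 (limma adjusted p = 1.02e-05) rests on the fertilized embryos alone and its size depends on the floor. Lnpk, a protein of endoplasmic reticulum junctions, measured 5.49, 5.33 and 5.74 in SCNT, against 4.46, 3.21, 3.14 and 4.88 in fertilized embryos without inhibitor. Its difference was -0.62 with amanitin and 1.6 without (interaction 2.22, limma adjusted p = 0.00691). It was dim in all groups, and its untreated difference was 2.2 or 0.96 with another constant. Yy1 differed by -0.04 with and 1.04 without amanitin (interaction 1.08, limma adjusted p = 0.00857), and Tsr1 by 0.21 with and 1.16 without (interaction 0.94, limma adjusted p = 0.00922).

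Further interactions had either sign. Sesn1 differed by -0.15 with and 1.22 without amanitin (interaction 1.37, limma adjusted p = 0.0367), and Depdc1b by -0.14 with and 1.74 without (interaction 1.88, limma adjusted p = 0.0283). They were called in 12 and 15 of 20 alternative fits. For Sall4 the decrease was greater with amanitin, -2.42 against -1.30 without (interaction 1.12, limma adjusted p = 0.0123), and for Paip2 the increase was, 1.49 against 0.70 (interaction -0.79, limma adjusted p = 0.000969, lost under median centring). Clcn1, a chloride channel gene, was at 1.32 with and -1.33 without amanitin (interaction -2.65, limma adjusted p = 0.000969). It was dim throughout, and its untreated call was lost without SCNT replicate 1 or 4 or fertilized replicate 3 (adjusted p up to 0.0874). The amanitin minus untreated difference within SCNT embryos, on arrays shared with the comparisons above, was -3.11 for Zfp352 (limma adjusted p = 1.26e-09), -1.90 for Psat1 (limma adjusted p = 0.0156), -1.45 for Scd1 (limma adjusted p = 0.000765), -1.34 for Yy1 (limma adjusted p = 1.35e-05) and -1.94 for Bambi (limma adjusted p = 0.00947). Ldha (-0.39, limma adjusted p = 0.887), Malat1 (-0.23, limma adjusted p = 0.963) and Egr1 (-0.25, limma adjusted p = 0.828) were not called in that comparison, in which 64 genes were called (0.429%).

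The lists that follow are to be read beside 2.87% of all genes called higher and 2.69% lower. The respiratory chain, proteasome and chaperone lists are abundant, so the highest class by level is nearer to them. In that class 322 of 4972 genes were called higher and 316 lower. Respiratory chain genes had 1 of 73 members called higher and 2 lower (median -0.06), below the shares of that class. Among the lower ones was Ndufs3, a core subunit of complex I (-0.94, SE 0.21, limma adjusted p = 0.00312). At an unadjusted p under 0.05, which 16.8% of all genes reached, 2 respiratory chain genes were higher and 10 lower. Proteasome subunits had 2 of 38 higher and 2 lower (median -0.07), with Psma5 of the 20S core at 9.34, 9.98 and 9.34 in SCNT, against 9.94, 10.60, 10.68 and 10.65 in fertilized embryos (-0.91, SE 0.17, limma adjusted p = 0.000564). Fertilized replicate 1 lay within the range of the SCNT arrays there. Heat-shock proteins and chaperones had 3 of 35 higher and 3 lower (median -0.03), and Hsph1, a large Hsp110 chaperone, rose by 0.70 (SE 0.16, limma adjusted p = 0.00498), a call lost without SCNT replicate 4 (adjusted p = 0.0511). Apoptosis genes had none of 34 called in limma, with 3 higher and 1 lower at an unadjusted p under 0.05 (median 0.01), and imprinted genes none of 30 higher and 2 lower (median -0.04).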

How the data were processed

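Labelled RNA of mouse 1-cell and 2-cell embryos was hybridised to 1-colour Affymetrix arrays after extraction with the PicoPure kit and labelling with the Enzo kit, per the labels' protocols. The authors deposited linear probe set intensity values, 1 column per array, whose trimmed mean was the same on every array, so they had been scaled to 1 target; the software is not given in the sources used here. Array medians of the deposited values lay at 5.21 to 5.30 log2 units on the SCNT and 5.21 to 5.33 on the fertilized arrays, and the number of arrays limits the precision.

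The constant 6.9 (20th percentile of all values) was added before log2, and 39 arrays were quantile normalized. Of 45101 probe sets, 64 were controls, 34945 named 1 gene, 932 several and 9160 none; 34741 matched RefSeq by Entrez number. Probe sets above the overall median on at least 4 arrays were kept, and the brightest stood for its gene, giving 14916 genes. limma 3.58.1 in R 4.3.3 (lmFit, eBayes with trend) fitted all 10 groups, with 29 residual degrees of freedom and Benjamini-Hochberg adjustment; measures of arrays were compared by two-sided exact permutation. On simulated data for this comparison with 200 of 14916 genes changed, 16.42%, 53.73% and 93.94% of changes of 0.5, 1 and 2 log2 units were recovered, and 6.838% of 117 calls were false.

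Same-numbered SCNT and fertilized arrays correlated at -0.0115 to 0.0307 in their deviations over 3 pairs. Differently numbered pairs lay at -0.0526 to 0.0494. With so few pairs this cannot tell whether a number marks a shared batch, which the labels do not say, and the samples were not paired. Alternatives were other constants, filters, normalizations, probe set rules, variance models, array weights, subsets of arrays, a replicate block and leaving out each of the 7 compared arrays. The members and gene lists were chosen with earlier results of these data known. Named genes were the 12 largest called increases and decreases with separate groups, up to 4 called and 2 uncalled members of each list, a fixed list, and 5 interactions of each sign. The text names part of them, and BC080696, Tle6, Zp1, Nlrp14, Cdk1, Plk1, Aurka, Cdc25a, Cdkn2c, Cdc25b, Ccne1, Dicer1, Kit, Dppa3, Ybx2, Npr2, Adamts1 and the 6 cumulus markers below the overall median were added after their values were seen.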

Additional observations from a re-analysis of the deposited data

Results flagged for a closer look

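Of 342 groups of 4 arrays checked for a single array far from the rest, 24 had one, where chance gives about 1 in 20. Fertilized replicate 1 was the array concerned for poly(A) controls (6.85, others 5.93 to 6.02), the Actb 3′ minus 5′ difference (2.59, others 1.71 to 1.74), the second principal component of the 1-cell arrays (5.83, others 22.77 to 25.04), Tuba1a (6.07, others 6.59 to 6.67), Npc1 (6.41, others 7.52 to 7.70), Uhrf1 (10.92, others 11.73 to 11.83), Numa1 (9.32, others 8.68 to 8.75) and Psma5 (9.94, others 10.60 to 10.68). Other fertilized arrays stood apart for Bex3 (replicate 2, 4.88) and Fos (replicate 4, 6.84). Among SCNT arrays with amanitin, replicate 1 was low for Pou5f1 (10.30) and Cdc25a (10.53), and replicate 4 for Slc2a4 (4.09). Among parthenogenetic arrays these were Bambi (replicate 3, 5.98), Sesn1 (replicate 2, 6.57), Uhrf1 (replicate 4, 11.40) and Bmpr1b (replicate 1, 8.49). Among fertilized arrays with amanitin, replicate 4 was apart for Srf (8.69), Tkt (8.32), Dppa2 (10.10) and H1f8 (10.47), and replicate 2 for Eif4a2 (10.62), Ncoa3 (10.15) and Ndufs3 (8.47).

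For 10 named genes the SCNT minus fertilized difference itself differed between untreated and amanitin embryos in limma's interaction test. The untreated minus amanitin value was 1.88 for Zfp352, 1.37 for Sesn1, 0.94 for Tsr1, 1.08 for Yy1, -3.69 for BC080696, 1.12 for Sall4, 2.22 for Lnpk, 1.88 for Depdc1b, -2.65 for Clcn1 and -0.79 for Paip2. Across alternatives the interaction call was lost for Sesn1 under 8 of 20 and for Depdc1b under 5 of 20, for Tsr1 and Sall4 with the mean of probe sets, for Yy1 with the 1-cell arrays alone and for Paip2 with median centring.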

How the results depend on the processing

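The untreated count of 829 called genes was 1410 with array weights, 1260 with the 1-cell arrays alone and 545 with the 7 arrays compared alone, and 437 to 1085 on leaving out 1 array. Higher calls (428) were 755, 652 and 258 under those settings, 282 with the mean of probe sets, and 223 to 587 on leaving out 1 array. Lower calls (401) were 655 with array weights, 608 with the 1-cell arrays alone, 259 with median centring and 214 to 498 on leaving out 1 array. Calls shared with amanitin (591) were 894, 897 and 376 under the same settings and 345 to 676 on leaving out 1 array. Interaction calls (359) were 1054 with array weights, 184 with the mean of probe sets, 1280 with median centring, 690 with the 1-cell arrays alone, 690 on values as deposited and 193 to 683 on leaving out 1 array. The amanitin count of 3214 stayed within 1.5 times under every alternative run, and was 3166 to 3341 on leaving out 1 array. Only the 7 untreated arrays compared were left out in turn, never an array with amanitin. That range therefore does not test the arrays with amanitin, and the range of the interaction count tests them no more. Whether a replicate number marks a shared batch is not labelled. The replicate block gave 788 untreated calls (399 higher, 389 lower), 3215 with amanitin, 564 shared and 343 interactions, and Mos missed the threshold under it. Without _s_at and _x_at probe sets, an alternative chosen after seeing the data, 780 genes were called. Of 83 named genes checked, 70 were called, 40 of them under every alternative that gave a value (19 to 21 a gene), and 1 changed sign: Cdc25c was at -0.13 (adjusted p = 0.836) with the constant at the 40th percentile, where another probe set stood for it. The added constant moved the fold of 8 of the 83 by over 1.5 times. Of 840 list medians, 786 moved by less than the spread between replicates and 54 by more. Dim genes are limited by signal over background.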

Other observations

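Called genes were spread over the chromosomes, with 3.78% of tested genes called on chromosome 8 and 9.41% on chromosome 18 as the extremes and 6.68% on the X chromosome. Of 497 called genes with further probe sets kept, 98 had another called the same way and 13 had one called the opposite way.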
